A study of Mus musculus with 12 samples.

Results

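The genes described here are 34 that make cholesterol and fatty acids or control those pathways, of 32285 genes listed for mouse lymph node cells. The set was chosen by a measured value: it is the pathway of Fdps, and Fdps, which makes the farnesyl unit of sterols, had been seen to be higher in CPM 3 days after a skin sensitiser in high endothelial cells. The day 3 levels in those cells are therefore described without a test. The genes fall into 8 enzymes from acetoacetyl-CoA to squalene, 10 that close and trim the sterol ring, 6 regulators or sterol carriers, 4 enzymes of fatty acid synthesis and elongation, 4 desaturases and 2 sterol exporters. Of the 34, 33 passed the filter on low counts in the high endothelial cells and the other, Tm7sf2, lay at 0.59 to 1.52 UMIs per 1000000 there.

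The study took nodes from C57BL/6 mice of 7 to 10 weeks that were homozygous for a floxed Atg12, a gene needed to build autophagosomes. The mice either carried or lacked CDH5 CreER, a tamoxifen-inducible recombinase driven by an endothelial cadherin promoter, and all were given tamoxifen 5 times, the controls included. Inflammation was raised with 50 ul of 4% oxazolone, a contact sensitiser, painted on the abdomen in acetone and olive oil. Nodes were collected at day 3 or day 7. The vehicle groups got the solvent, and their labels give no day of collection. Cells bound to CD45 beads and the remaining, CD31-sorted cells were each made into 10x 3' libraries, 1 for each of the 12 combinations, and the sources used here do not say how many mice went into a library. Each treatment is therefore read from 2 libraries of a fraction, 1 per label, which are not replicates. The p-values set the effect tested against how far the fraction's libraries depart from additive effects of label and treatment.

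Cells make cholesterol by joining acetyl units into mevalonate, turning that into farnesyl units and squalene, and folding squalene into a ring that is then trimmed. When membranes of the endoplasmic reticulum run low in sterol, SCAP carries the SREBP factors to the Golgi, where they are cleaved and then switch on these genes, while INSIG proteins hold them back. Sterol exporters such as ABCA1 are driven by the opposite, sterol-sensing LXR arm. High endothelial venules are the vessels through which lymphocytes leave the blood to enter a node, and are known for plump cells that coat themselves in sulphated ligands for L-selectin.

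Upstream sequence was matched by symbol to RefSeq (GRCm38.p6) for 26 of the 34 genes, which have 34 start sites there. The 4 stretches below are shown because they carry the letters usually read by the pathway's factors: CACNCCAC, the core of the sterol regulatory element, or CCAAT, the box read by NF-Y, which works beside SREBP. Each runs 5' to 3' on the gene's strand and ends at the annotated gene start or the RefSeq start, with matches on either strand in capitals (GTGGNGTG and ATTGG are the same motifs on the other strand; no match of one overlaps the other in these lines). The stretches are Hmgcs1 chr13:119690101-119690350 (+ strand), Acat2 chr17:12960748-12960975 (- strand), Insig1 chr5:28071162-28071362 (+ strand) and Mvk chr5:114444019-114444268 (+ strand).
Hmgcs1: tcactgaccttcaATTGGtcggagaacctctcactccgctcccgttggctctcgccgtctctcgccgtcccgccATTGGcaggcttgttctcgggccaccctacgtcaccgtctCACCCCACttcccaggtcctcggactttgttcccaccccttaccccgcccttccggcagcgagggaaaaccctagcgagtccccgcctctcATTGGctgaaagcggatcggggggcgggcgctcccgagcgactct
Acat2: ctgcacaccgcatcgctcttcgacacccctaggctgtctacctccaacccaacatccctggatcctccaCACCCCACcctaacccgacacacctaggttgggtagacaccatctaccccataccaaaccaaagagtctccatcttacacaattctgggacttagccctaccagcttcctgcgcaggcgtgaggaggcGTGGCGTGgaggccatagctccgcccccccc
Insig1: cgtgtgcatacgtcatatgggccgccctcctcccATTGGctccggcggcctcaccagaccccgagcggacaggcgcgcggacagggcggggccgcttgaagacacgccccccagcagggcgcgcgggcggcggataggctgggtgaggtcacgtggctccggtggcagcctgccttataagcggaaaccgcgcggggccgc
Mvk: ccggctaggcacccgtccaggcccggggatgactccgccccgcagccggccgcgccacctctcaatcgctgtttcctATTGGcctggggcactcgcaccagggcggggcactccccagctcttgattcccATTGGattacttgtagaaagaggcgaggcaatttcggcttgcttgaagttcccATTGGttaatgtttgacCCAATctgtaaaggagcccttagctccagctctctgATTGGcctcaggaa
Hmgcs1, the synthase that makes HMG-CoA, had both motifs, the sterol core starting 136 bases before its start site. Acat2, whose enzyme makes acetoacetyl-CoA, had 2 sterol cores and no CCAAT, and Mvk, mevalonate kinase, had 5 CCAAT boxes and no sterol core. In the 250 bases before the start, the sterol core was present in 3 of the 26 genes (11.5%) against 6.05% of 27025 genes in the table, the third being Insig1, where the match lies in bases not printed. CCAAT was present in 19 of 26 (73.1%) against 37.5% of all genes. A match is a description of letters and was not tied to binding or to any level below.

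The 12 libraries held 36724887 to 76187731 UMIs, the molecular tags that each mark 1 captured transcript, and 5698 to 10553 cells after filtering; at most 0.38% of cell barcodes were shared between any pair. Levels below are in CPM: the UMIs of a gene summed over the cells of a class in a library, per 1000000 UMIs of all genes in those cells. Such a sum cannot tell more cells holding a transcript from more transcript per cell. Levels of the targeted gene, Atg12, did not fall with the Cre-positive label: in high endothelial cells it lay at 45.5, 43.8 and 43.7 CPM in the Cre-negative libraries of vehicle, day 3 and day 7, against 52.7, 50.3 and 43.7. In the other blood endothelial cells it lay at 53.4, 48.4 and 55.7 CPM against 78.9, 65.5 and 70.0. These 3' tags need not cover the deleted part, so the label stands as the label only. Both vehicle libraries labelled Cre-positive held almost no cells with an Xist UMI (0.0883% and 0.0503%), whereas 29.8% to 54.7% of cells had one in the other 10, so the sexes were mixed differently. At day 3 the CD31 library labelled Cre-positive put 20.5% of its cells into an unnamed cluster of few UMIs, which is in no class.

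The class called HEV-like was 1 cluster of 2702 cells led by Glycam1, Ccl21a, Ubd and Fut7, and Chst4 was also among its 10 leading genes, so the label held. Its high endothelial markers summed to 35042.5 and 31830.0 CPM at vehicle, 32765.2 and 18990.0 at day 3, and 92314.9 and 21474.2 at day 7, the library labelled Cre-negative being given first in every pair here and below. Fibroblast markers summed to 0.305 to 2.95 CPM, with Lum and Ccl19 at 0. The class had 355 and 330 cells at vehicle, 435 and 649 at day 3, and 658 and 275 at day 7, with 3019664 to 7361140 UMIs per library.

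In HEV-like cells the fitted values of the sterol enzymes, not only of Fdps, lay above vehicle at day 3, and that of the exporter Abca1 lay below. Of the 33 genes fitted, 29 lay above 0 on the log2 scale, with a median of 0.57, against -0.001 over all 11696 genes fitted. The values are a description, since day 3 in these cells chose the genes. Over all genes, edgeR's quasi-likelihood test called 0.0342% higher and 0.0342% lower there at an adjusted p under 0.05, from which nothing is read about the members. The 15 members averaging at least 20 CPM were taken over all libraries, day 3 included, so a gene could enter through its day 3 level. Of these, 12 had both day 3 libraries above both vehicle libraries and 1 had both below. Of the 6045 genes at that level 32.8% and 31.2% did, and nothing is read from these shares either.

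Between acetoacetyl-CoA and squalene, all 8 enzymes lay above 0, with a median log2 difference of 1.26. Fdps, farnesyl diphosphate synthase (chr3:89093588-89101959, GRCm38, - strand), measured 20.1 and 18.6 CPM at vehicle, 66.7 and 63.7 at day 3, and 18.9 and 36.1 at day 7. The fitted day 3 difference from vehicle was 1.75 on the log2 scale. Both day 3 libraries lay above the 4 others, and at day 7 only the library labelled Cre-positive was above vehicle. Idi1, the isomerase that supplies the farnesyl reaction, had 16.5 and 15.2 CPM at vehicle, 46.8 and 43.2 at day 3, and 12.6 and 24.8 at day 7. Its day 3 difference was 1.495, and both day 3 libraries again lay above the other 4. Hmgcs1 had 31.3 and 22.5 CPM at vehicle, 37.0 and 44.3 at day 3, and 25 and 33.1 at day 7, a day 3 difference of 0.58, with most of it in the libraries labelled Cre-positive. The less abundant steps went the same way: Acat2 by 1.53, Fdft1, squalene synthase, by 1.48, Pmvk, phosphomevalonate kinase, by 1.04, Mvd, the decarboxylase, by 0.93 and Mvk by 0.64. For Pmvk the libraries were 15.7 and 9.44 CPM at vehicle and 25.2 and 26.8 at day 3, so that the groups did not overlap.

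Among the 9 ring enzymes fitted, all lay above 0, with a median of 0.70. Msmo1, which strips methyl groups from the ring, measured 19.8 and 17.1 CPM at vehicle, 44.8 and 39.9 at day 3, and 15.8 and 23.5 at day 7, a day 3 difference of 1.19. Its partner in demethylation, Cyp51, measured 12.4 and 8.53 CPM, then 29.3 and 24.2, then 11.8 and 15.2, a difference of 1.35. Sqle, the epoxidase that commits squalene to the ring, measured 5.02 and 5.79 CPM, then 14.6 and 13.8, then 5.84 and 9.94, a difference of 1.38. In all 3 genes the day 3 pair was at the top and did not overlap the other 4 libraries. Later steps differed less: Ebp, the sterol isomerase, went from 49.6 and 45.7 CPM to 63.1 and 68.6, a difference of 0.46, and Sc5d, the sterol desaturase, from 36.3 and 28.6 to 46.0 and 45.1, a difference of 0.49. At day 7 Ebp measured 43.9 and 54.6 CPM and Sc5d 33.55 and 33.45, near vehicle. Lss, which folds the ring, lay at 0.88, Dhcr7 at 0.70, Nsdhl at 0.60 and Hsd17b7 at 0.44.

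The regulators were split, with a median of 0.17. Insig1, the brake on SCAP and itself an SREBP target, measured 19.8 and 17.4 CPM at vehicle, 36.8 and 40.2 at day 3, and 16.3 and 19.9 at day 7, a day 3 difference of 1.04. Stard4, a carrier of sterol between membranes, measured 91.5 and 78.9, then 130 and 119, then 84.0 and 107, a difference of 0.54. Both had their day 3 pair above the other 4 libraries. The transcripts of the factors themselves differed little: Srebf2 measured 26.3 and 31.1 CPM at vehicle and 30.5 and 31.8 at day 3, a difference of 0.11, and Srebf1 lay at 0.02. Insig2 lay at 0.23, and Scap at -0.48, from 15.7 and 25.6 CPM to 14.3 and 15.0.

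Fatty acid genes followed in part. Elovl6, which lengthens palmitate, measured 40.7 and 45.1 CPM at vehicle, 65.3 and 62.8 at day 3, and 52.0 and 41.7 at day 7, a day 3 difference of 0.57. Fasn, the fatty acid synthase, was low, at 2.36 and 2.44 CPM and then 6.88 and 7.94, and differed by 1.61. Acaca, the carboxylase before it, lay at 0.46 and Acly, which supplies acetyl-CoA, at 0.34. Of the desaturases, Scd1 lay at 0.33, Fads1 at 0.23 and Scd2 at 0.16, with Scd2 at 37.8 and 39.9 CPM at vehicle and 45.8 and 41.6 at day 3. Fads2 went the other way, from 10.9 and 18.6 CPM to 9.04 and 7.58, a difference of -0.85.

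The exporters were level or lower. Abca1 measured 451 and 465 CPM at vehicle, 354 and 294 at day 3, and 409 and 445 at day 7, a day 3 difference of -0.51, with both day 3 libraries below the other 4. Abcg1 measured 36.6 and 48.7 CPM at vehicle and 36.0 and 44.1 at day 3, and the groups overlapped, with a difference of -0.09. Summed by role, the enzymes to squalene measured 105 and 86.8 CPM at vehicle, 218 and 228 at day 3, and 93.2 and 154 at day 7. The ring enzymes measured 136 and 126, then 223 and 213, then 126 and 151. The desaturases did not separate, at 64.1 and 69.7, then 71.0 and 65.1, then 60.7 and 60.3.

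**Figure D1:**
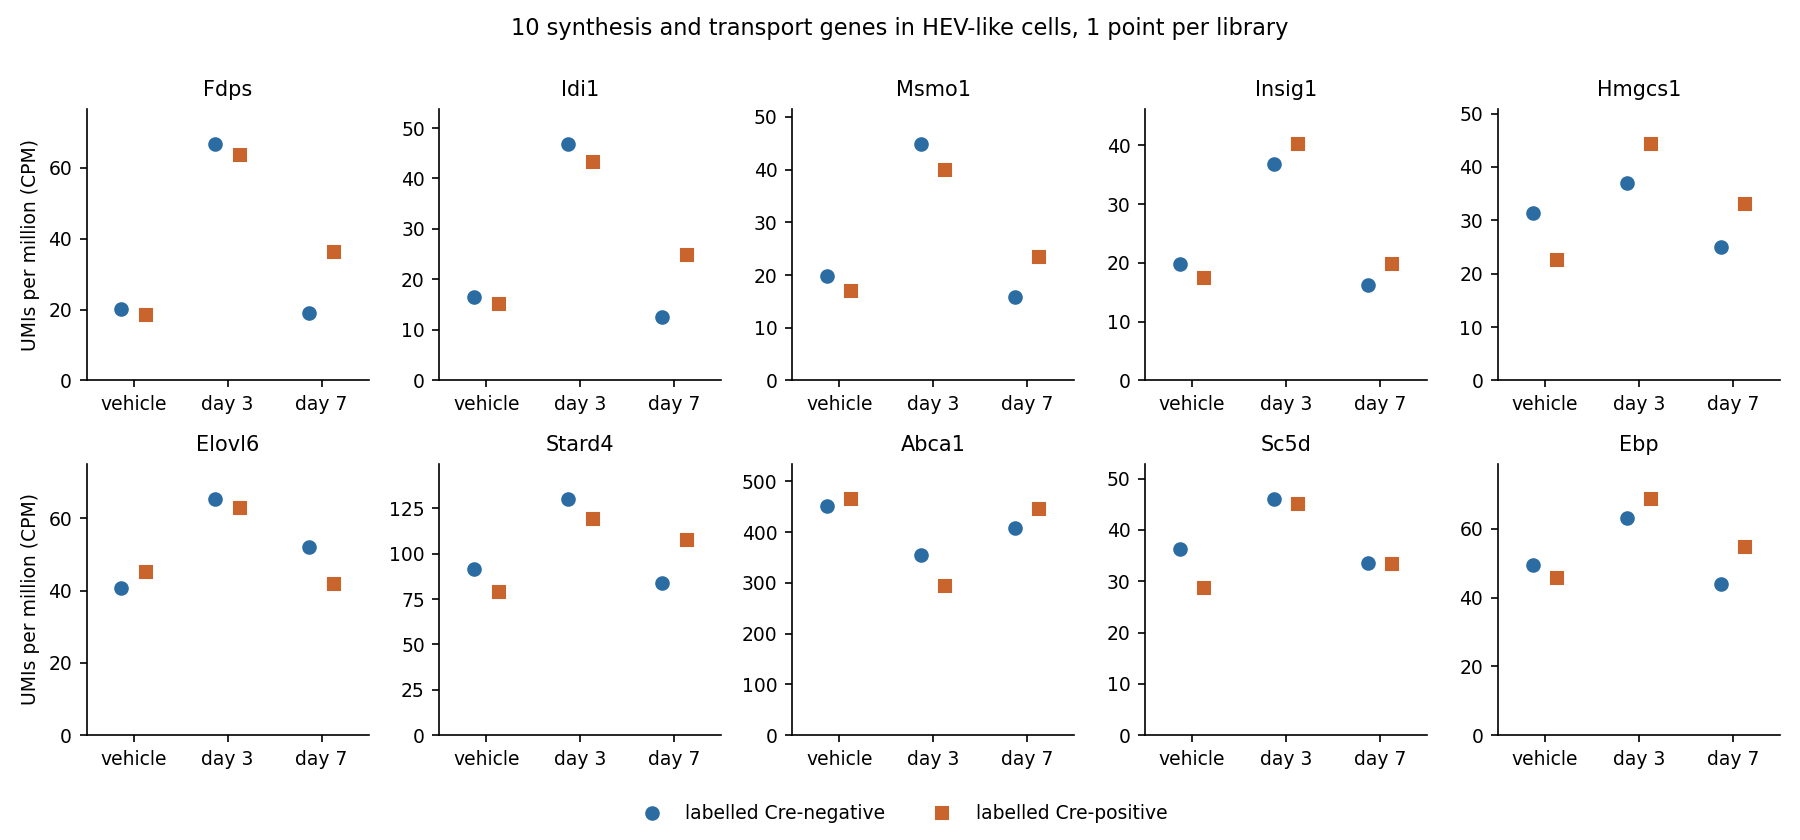
Levels in HEV-like cells, in CPM on the vertical axes from 0, of the 10 genes with the largest day 3 difference among those averaging at least 20 CPM. That average was over all libraries, day 3 included. Each point is 1 library, circles for those labelled Cre-negative and squares for Cre-positive, with treatments along the horizontal axis; day 3 is at the top for Fdps (66.7 and 63.7) and at the bottom for Abca1 (354 and 294).

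**Figure D2:**
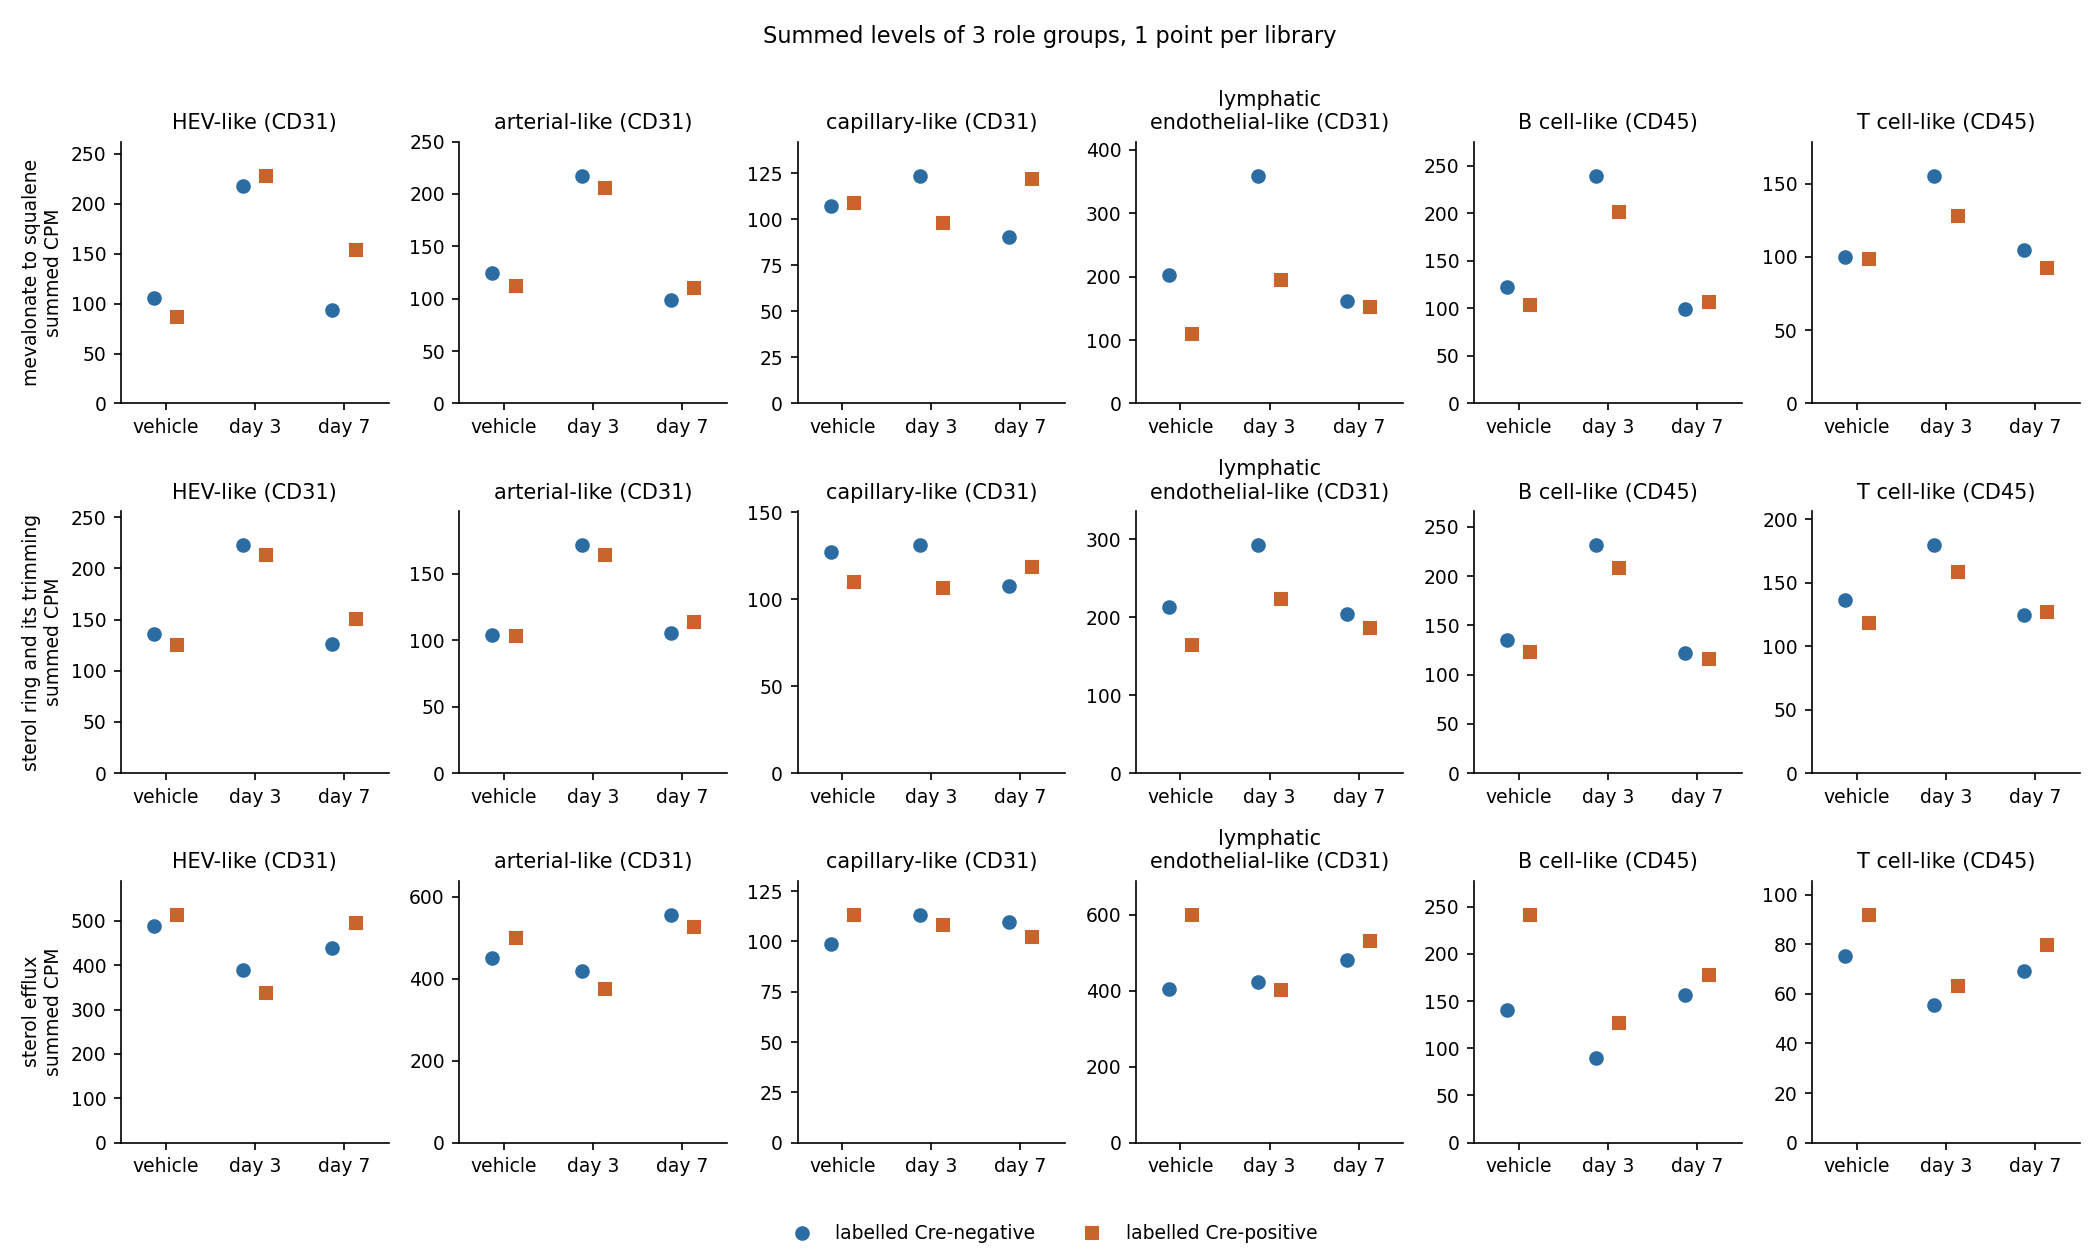
Summed CPM (vertical axes, from 0) of the enzymes to squalene, the ring enzymes and the exporters in 6 classes, by treatment; each point is 1 library, circles labelled Cre-negative and squares Cre-positive. In HEV-like cells the enzymes to squalene are at 218 and 228 CPM at day 3 against 105 and 86.8 at vehicle, and in capillary-like cells the treatments overlap.

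Other quantities moved with day 3 in these cells. Cycling genes summed to 205 and 198 CPM at vehicle, 412 and 505 at day 3, and 148 and 275 at day 7. Lymphatic endothelial markers summed to 43.1 and 39.9 CPM at vehicle, 84.3 and 62.3 at day 3, and 36.5 and 47.7 at day 7, and NK cell markers to 5.61 and 14.3, then 15.5 and 33.5, then 2.04 and 3.31, both lists highest at day 3. Venous markers summed to 3542.9 and 3744.8, then 5278.5 and 4036.7, then 4184.3 and 2781.1, with day 3 above vehicle but overlapping day 7. B cell markers were lowest at day 3, at 1090.5 and 974.3, then 697.6 and 662.5, then 737.9 and 848.8, and pericyte markers also, at 28.6 and 161.7, then 6.49 and 14.1, then 53.2 and 32.8. The part of these other cells' markers was not tested. Fdps in free RNA, read from barcodes of at most 100 UMIs in the CD31 libraries, measured 35.8 and 17.6 CPM at vehicle, 90.0 and 85.7 at day 3, and 27.6 and 33.7 at day 7. T cell markers in HEV-like cells summed to 41.7 to 78.5 CPM, which is 6.7% to 12.2% of their level in free RNA, and B cell markers, without Ebf1, to 2.68% to 17.4%. The median over members, 0.57 in all cells, was 0.57 in cells with no UMI of the cycling genes and 0.54 with 10% of the UMIs taken out in the profile of free RNA. It was 0.33 in cells with a Y-linked and no Xist UMI, and 0.43 without the vehicle library labelled Cre-positive. Day 3 in these cells chose the genes, so these medians are descriptions only. The part of cycling and of free RNA was not tested.

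By day 7 no member passed the test in HEV-like cells. The edgeR test called 0 of 33 at an adjusted p under 0.05, and 0.0% of all genes, DESeq2 also called 0 (0.0% of all genes), and 1 member had an unadjusted p under 0.05, against 2.74% of all genes. That member was Fdft1, at 0.93 (SE 0.32, unadjusted p = 0.021, adjusted p = 0.988). Fdps differed from vehicle by 0.48 (SE 0.26, adjusted p = 0.988), Acly by 0.39 (SE 0.18), Stard4 by 0.21, Idi1 by 0.20 and Hmgcs1 by 0.14, all at the same adjusted p. The 2 day 7 libraries did not go the same way: the summed enzymes to squalene stood 0.18 lower on the log2 scale than vehicle of the same label in the library labelled Cre-negative (-0.178) and 0.83 higher in the one labelled Cre-positive. Of the members averaging at least 20 CPM, 2 had both day 7 libraries above both vehicle libraries and 3 had both below, against 7.23% and 21.9% of genes at that level. Day 3 and day 7 share the vehicle libraries, so their changes are not independent.

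The label made no difference that passed the test in HEV-like cells. With edgeR 0 of 32 members were called between the libraries labelled Cre-positive and Cre-negative, over treatments, against 0.0354% of all genes. At an unadjusted p under 0.05, where 4.28% of all genes lay, there were 2, Acat2 at 0.62 (SE 0.26, adjusted p = 0.999) and Abcg1 at 0.44 (SE 0.13, adjusted p = 0.809). Fdps differed by 0.21 (SE 0.19, adjusted p = 0.999) and Idi1 by 0.19.

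In the other blood vessels the day 3 difference could be tested, and arterial-like cells, the lining of arteries, gave 6 of the 12 calls made in all classes. There 6 of 32 members rose and none fell, against 3.94% of all genes higher and 3.13% lower, and 27 of 32 lay above 0 with a median of 0.48. They were 3 of the 8 enzymes to squalene, 2 of 8 ring enzymes and 1 of 4 fatty acid genes. Fdps measured 27.9 and 19.0 CPM at vehicle, 68.6 and 58.3 at day 3, and 13.4 and 25.9 at day 7, a day 3 change of 1.44 (SE 0.24, adjusted p = 0.00208). Cyp51 measured 8.14 and 5.36, then 27.7 and 18.1, then 5.18 and 8.86, a change of 1.75 (SE 0.33, adjusted p = 0.00462). Both day 3 libraries lay above the other 4 for both genes. Msmo1 measured 16.0 and 11.9, then 30.8 and 29.99, then 18.1 and 11.8, and rose by 1.20 (SE 0.24, adjusted p = 0.00615). Idi1 measured 14.4 and 13.1, then 25.3 and 33.95, then 15.5 and 9.51, and rose by 1.19 (SE 0.26, adjusted p = 0.0123). For these also, no day 3 library overlapped another treatment. Of all genes averaging at least 20 CPM in this class, 24.1% had both day 3 libraries above both vehicle libraries and 35.1% had both below. Pmvk, from 21.9 and 18.4 CPM to 34.7 and 32.2, rose by 0.76 (SE 0.21, adjusted p = 0.0374) and measured 16.4 and 20.7 at day 7. Elovl6, from 6.89 and 11.9 to 18.3 and 17.5, rose by 1.07 (SE 0.31, adjusted p = 0.046) and measured 7.77 and 6.23 at day 7.

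Other arterial-like members came short of the threshold. Srebf2 measured 22.9 and 25 CPM at vehicle, 46.0 and 29.2 at day 3, and 24.6 and 26.6 at day 7 (0.70, adjusted p = 0.0622). Abca1, at 404 and 420, then 345 and 308, then 481 and 461, had its day 3 pair lowest, and Hmgcs1, at 37.0 and 35.1, then 46.8 and 39.0, then 26.3 and 26.6 (0.31), had its day 3 pair highest. Ebp measured 44.8 and 44.6, then 56.5 and 59.4, then 44.0 and 42.6 (0.44), and Scd2 97.7 and 80.9, then 109 and 102, then 94.9 and 102 (0.30), again with day 3 highest. Acaca measured 25.7 and 28.0, then 21.8 and 19.4, then 22.9 and 25.6 (-0.32), with day 3 lowest. Stard4, at 76.7 and 61.9, then 90.0 and 76.2, then 71.6 and 71.5 (0.32), and Fads2, at 21.3 and 32.7, then 22.6 and 15.8, then 23.7 and 31.5 (-0.43), had overlapping groups. The arterial-like class held 417 to 1002 cells per library in 2 clusters, and cycling genes summed to 205 and 168 CPM at vehicle and 278 and 238 at day 3. Venous markers summed to 357.6 and 302.3 CPM at vehicle, 547.1 and 565.1 at day 3, and 254.2 and 339.2 at day 7, so that day 3 lay apart as it did for the called members, and their part was not tested. Red cell markers were at 1779.5 CPM in the vehicle library labelled Cre-positive and at 0 to 10.3 in the other 5. Median UMIs per cell were 4086 and 3498 at vehicle and 5282.5 and 4770.5 at day 3, and in cells of at least 2000 UMIs 4 members were called. In cells with no cycling UMI 3 members were called, with free RNA removed 3, with doublets kept 1, in cells with a Y-linked and no Xist UMI 0, without the day 3 library labelled Cre-negative 1, and without the other day 3 library 2. DESeq2 gave an adjusted p for 7 of the 32, none of them among the 6, and called 0, against 5.73% of the 4660 genes with an adjusted p. The change of Fdps was 1.29 in cells with no cycling UMI, 1.39 with free RNA removed and 1.08 in cells with a Y-linked and no Xist UMI, where the median over members was 0.29. Over all alternatives with a value, Fdps lay between 1.08 and 1.86 and Cyp51 between 1.26 and 2.06. Msmo1 lay between 0.82 and 1.49. The other 3 fell by over 1.5 times somewhere: Idi1 to 0.74 in cells with a Y-linked and no Xist UMI and 0.75 without the day 3 library labelled Cre-positive, Pmvk to 0.41 with doublets kept, and Elovl6 to 0.36 in cells with a Y-linked and no Xist UMI, 0.61 without the vehicle library labelled Cre-negative and 0.69 in cells with no cycling UMI.

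In the blood endothelial clusters that were not named as arterial, capillary, venous or high endothelial, Fdps and its supplier Idi1 rose at day 3. With edgeR 2 of 34 members rose and none fell, against 0.41% of all genes higher and 0.209% lower. Fdps measured 19.3 and 14.7 CPM at vehicle, 34.8 and 31.8 at day 3, and 16.3 and 16.7 at day 7, and rose by 1.05 (SE 0.15, adjusted p = 0.0411). Idi1 measured 7.56 and 7.82, then 18.6 and 16.6, then 7.82 and 9.10, and rose by 1.26 (SE 0.18, adjusted p = 0.0419). In both, day 3 lay above all other libraries. Of all genes averaging at least 20 CPM in this class, 24.4% had both day 3 libraries above both vehicle libraries and 35.9% had both below. Pmvk, at 19.2 and 13.8 and then 26.3 and 27.7, did not pass (0.81, adjusted p = 0.0734), nor did Abca1, at 398 and 453 and then 278 and 258 (-0.59, adjusted p = 0.0954). DESeq2 gave an adjusted p for 9 of the 34 members, not for Fdps or Idi1, and called 1, Abca1 (-0.61, adjusted p = 0.0106). That stands against 3.46% of the 5868 genes with an adjusted p. Ebp measured 48.5 and 38.3, then 54.0 and 55.8, then 45.0 and 48.8 (0.42), and Hmgcs1 27.7 and 29.3, then 33.5 and 30.7, then 24.4 and 24.0 (0.24), both highest at day 3. Scap measured 24.9 and 27.8, then 23.1 and 21.8, then 26.6 and 32.2 (-0.17), lowest at day 3. Stard4 measured 55.0 and 52.7, then 67.7 and 60.2, then 54.6 and 61.4 (0.32), with day 3 above vehicle only. Insig1 (0.34), Acaca (-0.16) and Abcg1 (0.13) had overlapping groups, Insig1 at 23.7 and 17.2, then 28.8 and 20.6, then 23.5 and 20.1, Acaca at 26.4 and 27.8, then 28.1 and 19.0, then 21.9 and 21.3 and Abcg1 at 82.6 and 109, then 102 and 96.5, then 86.2 and 100. Venous markers summed to 431.3 and 289.5 CPM at vehicle, 651.8 and 699.2 at day 3, and 361.6 and 403.2 at day 7, and cycling genes to 219.8 and 175.1, then 331.8 and 350.6, then 189.6 and 225.8, both highest at day 3. The part of the venous genes was not tested. Both calls were lost in 7 of 16 alternatives: without the vehicle library labelled Cre-positive (Fdps 0.87, Idi1 1.26), without the day 3 library labelled Cre-negative (1.10 and 1.14) or Cre-positive (0.97 and 1.36), with library totals in place of TMM scaling (Fdps 0.98, Idi1 1.19, both at an adjusted p of 0.0546), and in the following 3. In cells with no cycling UMI Fdps was 0.66 (adjusted p = 0.292) and Idi1 0.79 (adjusted p = 0.404), with free RNA removed they were 0.82 and 1.19, and in cells with a Y-linked and no Xist UMI 0.88 and 1.12.

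Capillary-like cells gave no call and no common direction. Their median over 31 members was -0.10, with 11 above 0, and 0 were called, against 0.2% of all genes in either direction; 3 had an unadjusted p under 0.05, against 8.44% of all genes. Fdps measured 20.3 and 17.6 CPM at vehicle, 23.2 and 22.2 at day 3, and 16.9 and 20.9 at day 7. Fads2, which desaturates polyunsaturated fatty acids, was low and had the largest difference, -1.35 (adjusted p = 0.451). Scd2, a stearoyl desaturase, measured 31.6 and 23.1, then 14.3 and 19.9, then 23.8 and 34.1 (-0.70, SE 0.25, adjusted p = 0.429). Scd1 measured 24.2 and 63.1, then 22.0 and 25.6, then 35.3 and 77.6 (-0.69, adjusted p = 0.39), and Fasn 15.5 and 30.9, then 13.03 and 18.5, then 16.1 and 32.0 (-0.47, adjusted p = 0.612). For Scd1 and Fasn the libraries labelled Cre-positive were the higher ones in every pair. Insig2 measured 40.0 and 43.1, then 34.8 and 30.8, then 47.6 and 44.8 (-0.31), with day 3 lowest. In the others the groups overlapped: Hmgcs1 at 32.8 and 25.8, then 26.8 and 20.4, then 20.7 and 30.7 (-0.27), Acaca at 30.1 and 39.7, then 29.9 and 32.2, then 36.1 and 41.8 (-0.12), Pmvk at 21.5 and 24.4, then 30.1 and 17.5, then 16.9 and 26.0 (0.14), Abcg1 at 27.4 and 30.6, then 35.5 and 26.0, then 28.4 and 28.6 (0.14) and Ebp at 50.4 and 47.2, then 59.0 and 44.5, then 46.1 and 49.9 (0.12). Of all genes averaging at least 20 CPM in this class, 18.9% had both day 3 libraries above both vehicle libraries and 22.5% had both below. These cells were shallow, with a median of 1862 to 2819 UMIs. A cluster led by Timp4, Tcf15 and Cdkn1c held 25.1% and 24.1% of the class at vehicle, 45.5% and 41.6% at day 3, and 17.3% and 26.6% at day 7, the rest being in a cluster led by Lnx1 and Cd36. Adipocyte genes in them summed to 97.0 and 120 CPM, then 82.0 and 34.6, then 86.7 and 134, and red cell genes to 108 and 230, then 605 and 4158, then 19.2 and 437. The part of cluster makeup, depth and these other genes was not tested, and neither was the difference from arterial-like cells.

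Taken as 1 class, all non-HEV blood endothelial cells gave 0 calls of 34 members at day 3 with edgeR, where 0.0% of all genes were called, and 13 members had an unadjusted p under 0.05, against 16.6% of all genes. DESeq2 called 2 of the 32 for which it gave an adjusted p, Fdps and Idi1, against 0.795% of the 12071 genes with one. Fdps had 21.2 and 15.8 CPM at vehicle, 38.1 in both day 3 libraries, and 15.6 and 19.8 at day 7 (1.11, SE 0.17, adjusted p = 0.184). Idi1 measured 9.94 and 9.72, then 19.2 and 21.0, then 9.17 and 10.1 (1.10), and Abca1 measured 333 and 380, then 233 and 254, then 403 and 402 (-0.48, adjusted p = 0.2). All 3 separated day 3 from the other libraries. Such separation from vehicle was common in this class. Of the 6799 genes averaging at least 20 CPM, 1627 had both day 3 libraries above both vehicle libraries and 2310 had both below. Of the 14 members at that level, 6 had both above and 3 had both below. Pmvk differed by 0.72, from 20.1 and 16.2 CPM to 29.3 and 27.8, and Ebp by 0.39, from 48.3 and 40.9 to 55.9 and 55.6. Other differences were smaller. Stard4 measured 58.8 and 55.6, then 65.7 and 64.9, then 57.1 and 61.1 (0.26), and Hmgcs1 30.6 and 29.4, then 33.9 and 32.1, then 24.2 and 25.7 (0.20), both still highest at day 3. Scd2 measured 51.9 and 51.3, then 53.6 and 60.6, then 50.4 and 67.1 (0.21), with day 3 above vehicle only. Srebf2, at 22.0 and 25.2, then 32.6 and 22.6, then 21.9 and 22.1 (0.27), Insig1, at 26.6 and 20.9, then 30.6 and 22.3, then 23.9 and 21.1 (0.21), and Acaca, at 26.9 and 30.2, then 27.5 and 20.6, then 23.2 and 26.1 (-0.19), overlapped. At day 7 0 of 34 were called (0.0% of all genes), with Hmgcs1 at -0.27 and Srebf1 at -0.31 having an unadjusted p under 0.05, against 1.67% of all genes. Between labels 0 of 34 were called (0.00719% of all genes), with Insig1 at -0.28, Scd2 at 0.24 and Fasn at 0.82 under an unadjusted 0.05, against 2.47% of all genes. The day 3 median over members, 0.26, was 0.16 in cells with no cycling UMI.

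In lymphatic endothelial-like cells 30 of 33 members lay above 0 at day 3, but libraries of 1 treatment lay far from each other. With edgeR 0 of 33 members were called at day 3, as were 0.0% of all genes, and 10 members had an unadjusted p under 0.05, against 5.12% of all genes; DESeq2 called 0, against 0.0753% of all genes. The median was 0.34, and 0.13 in cells with a Y-linked and no Xist UMI. Fdps measured 48.3 and 18.7 CPM at vehicle, 102 and 51.9 at day 3, and 35.3 and 37.2 at day 7 (1.25, SE 0.31, adjusted p = 0.717). Idi1 measured 26.2 and 12.6, then 63.1 and 26.2, then 26.7 and 19.0 (1.19, SE 0.23, adjusted p = 0.459). For Fdps the day 3 pair was highest, but the vehicle library at 48.3 was close to the lower day 3 one, and both genes were higher in the library labelled Cre-negative at vehicle and at day 3. The largest difference was in Sqle, at 7.14 and 3.82, then 23.5 and 11.8, then 9.63 and 7.68 (1.69, SE 0.29, adjusted p = 0.353). Insig1, at 30.4 and 11.8 and then 48.3 and 25.02 (0.85, adjusted p = 0.895), and Hmgcs1, at 44.4 and 24.6 and then 90.1 and 36.4 (0.85, adjusted p = 0.905), had overlapping groups. Cyp51 measured 24.8 and 15.6, then 38.6 and 27.1, then 21.6 and 19.7 (0.73), Scd2 66.7 and 72.9, then 117 and 88.5, then 78.5 and 72.7 (0.57) and Ebp 50.0 and 44.9, then 57.5 and 64.7, then 48.1 and 48.2 (0.39), each with its day 3 pair highest. Of all genes averaging at least 20 CPM in this class, 13.9% had both day 3 libraries above both vehicle libraries and 15.5% had both below. Msmo1, at 46.4 and 34.7, then 62.6 and 43.2, then 42.4 and 33.3 (0.40), Sc5d, at 51.7 and 40.2, then 70.2 and 45.8, then 54.1 and 48.1 (0.34), and Pmvk, at 40.2 and 28.2, then 46.4 and 38.0, then 32.9 and 31.0 (0.34), overlapped. The cluster led by Ackr4 made up 69.8% and 43.7% of the class at vehicle, 57.5% and 55.1% at day 3, and 44.4% and 63.1% at day 7, and cycling genes summed to 599 and 232 CPM, 736 and 559, and 362 and 379; the part of the makeup was not tested, and in cells with no cycling UMI the median was 0.25. The test of whether the day 3 effect differed between lymphatic and non-HEV blood endothelial cells called 0 members and 0.0% of all genes, with Hmgcs1 at 0.61 (SE 0.27) and Insig1 at 0.64 (SE 0.27) under an unadjusted p of 0.05, where 4.33% of all genes lay, both at an adjusted p of 1.0.

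**Figure D3:**
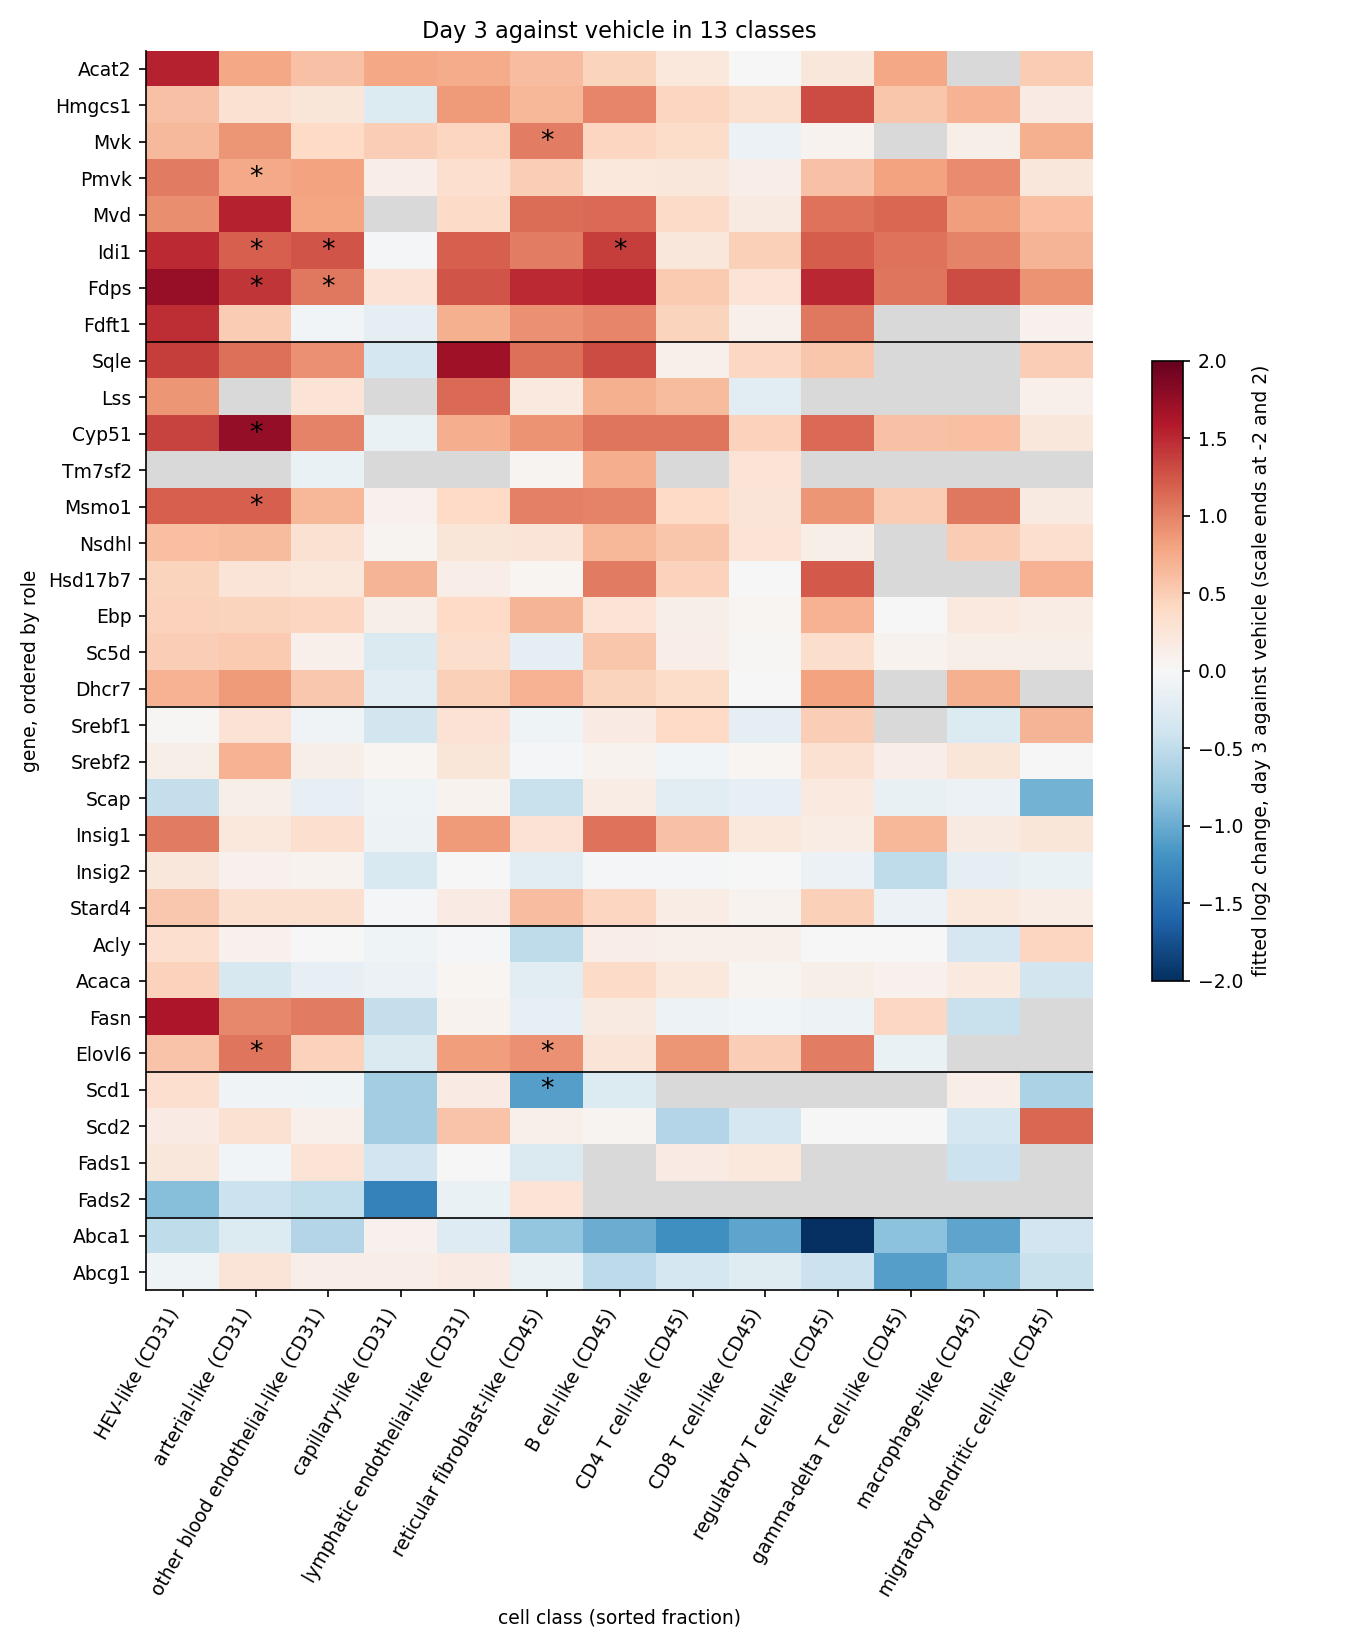
Fitted log2 change at day 3 against vehicle for the 34 genes (rows) in 13 classes (columns). Grey cells were not tested, a star marks an edgeR adjusted p under 0.05, and no test is shown for HEV-like cells; Fdps is above 0 in every column and Abca1 mostly below.

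In the CD45 fraction, sterol genes of B cell-like cells lay higher at day 3 in both libraries. Only Idi1 passed the threshold, 1 of 32 members against 0.0249% of all genes higher and 0.0% lower, while 28 of 32 lay above 0 with a median of 0.44 and 16 had an unadjusted p under 0.05, against 9.42% of all genes. Idi1 measured 21.5 and 16.0 CPM at vehicle, 52.2 and 45.9 at day 3, and 11.4 and 11.2 at day 7, and rose by 1.39 (SE 0.15, adjusted p = 0.0419). Fdps measured 22.3 and 15.4, then 66.6 and 44.5, then 15.9 and 18.4 (1.54, SE 0.20, adjusted p = 0.0517). Cyp51 measured 26.8 and 20.5, then 49.2 and 49.5, then 20.04 and 17.9 (1.07, adjusted p = 0.0517). In all 3 both day 3 libraries lay above the other 4. The same separation held for Msmo1, at 26.2 and 28.0, then 56.7 and 51.0, then 20.6 and 16.0 (1.00, adjusted p = 0.0517). It also held for Hmgcs1, at 18.9 and 21.0, then 38.4 and 40.0, then 19.6 and 15.8 (0.98, adjusted p = 0.0517). Insig1 measured 21.5 and 17.7, then 40.9 and 42.1, then 16.8 and 11.3 (1.09, adjusted p = 0.0518). The exporters were lower: Abca1 measured 82.0 and 156, then 45.8 and 71.6, then 97.6 and 98.2 (-0.99, adjusted p = 0.134), and Abcg1 58.7 and 85.6, then 44.2 and 55.1, then 59.2 and 79.6 (-0.52). Sc5d measured 19.5 and 18.2, then 29.96 and 25.8, then 19.0 and 19.1 (0.56) and Stard4 29.3 and 24.9, then 36.0 and 36.8, then 26.6 and 21.0 (0.43), with day 3 highest in both. Of all genes averaging at least 20 CPM in this class, 19.8% had both day 3 libraries above both vehicle libraries and 11.1% had both below. DESeq2 called 7 of the 31 with an adjusted p, against 0.358% of the 10629 genes with one: the 6 above from Idi1 to Insig1 and, lower, Abca1. The Idi1 call was lost in 6 of 17 alternatives, without either day 3 library (1.42 and 1.36) and at 1.35 when doublets were kept (adjusted p = 0.0581), 1.22 in cells with no cycling UMI (adjusted p = 0.0549), 1.45 with free RNA removed (adjusted p = 0.0869) and 0.97 in cells with a Y-linked and no Xist UMI (adjusted p = 0.622). Free RNA of the CD45 libraries held Fdps at 43.1 and 32.5 CPM, then 117 and 87.9, then 33.3 and 34.7. The makeup of the class also differed between libraries, a cluster led by Bank1 and Dmxl1 taking 15.4% and 33.1% of it at vehicle, 7.22% and 38.0% at day 3, and 9.72% and 15.4% at day 7.

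T cell-like cells of that fraction gave 0 calls of 32 members with edgeR, against 0.0% of all genes, 9 members with an unadjusted p under 0.05, against 6.04% of all genes, and a median of 0.21, which was 0.10 in cells with no cycling UMI. DESeq2 called 1 of the 31 with an adjusted p, Abca1, against 0.123% of the 10598 genes with one. Fdps measured 23.3 and 22.7 CPM at vehicle, 41.4 and 33.5 at day 3, and 23.8 and 22.1 at day 7 (0.66, SE 0.11, adjusted p = 0.245), and Cyp51 measured 19.3 and 14.1, then 32.2 and 29.9, then 16.3 and 13.2 (0.87, adjusted p = 0.224). Elovl6 measured 21.8 and 26.9, then 30.4 and 48.4, then 18.9 and 27.2 (0.64, adjusted p = 0.316). Each had its day 3 pair highest. So did Hmgcs1, at 17.2 and 16.9, then 29.1 and 21.7, then 18.6 and 16.8 (0.53), Msmo1, at 19.5 and 16.7, then 29.7 and 22.8, then 16.9 and 16.8 (0.50), and Ebp, at 52.0 and 41.5, then 59.2 and 52.8, then 46.0 and 48.6 (0.23). Abcg1 measured 55.0 and 66.4, then 46.8 and 52.0, then 52.9 and 59.1 (-0.33), with day 3 lowest. Of all genes averaging at least 20 CPM in this class, 18.9% had both day 3 libraries above both vehicle libraries and 8.46% had both below. Stard4, at 29.9 and 26.0, then 34.8 and 30.6, then 29.1 and 30.6 (0.19), Scd2, at 28.8 and 24.4, then 20.7 and 25.6, then 21.4 and 33.3 (-0.25), and Srebf2, at 50.6 and 63.4, then 59.5 and 64.0, then 48.3 and 53.2 (0.09), overlapped other libraries. Abca1 was low, at 20.1 and 25.4, then 8.56 and 11.2, then 16.4 and 20.4 (-1.24, adjusted p = 0.15). The day 3 effect in T cell-like minus B cell-like cells gave 0 calls (0.0% of all genes), with 8 members under an unadjusted p of 0.05, against 8.42% of all genes, all smaller in T cells: Fdps by -0.85 (SE 0.19, adjusted p = 0.303), Sqle by -0.88, Idi1 by -0.75, Insig1 by -0.70, Mvd by -0.65, Msmo1 by -0.48, Hmgcs1 by -0.43 and Sc5d by -0.37.

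Within the T cells, no member of the regulatory T cell-like class passed the threshold, and neither did any of the 9692 genes tested. In that class 12 of 29 members had an unadjusted p under 0.05, against 6.37% of all genes. Its Fdps measured 21.2 and 19.7 CPM at vehicle, 66.8 and 48.6 at day 3, and 21.8 and 23.9 at day 7 (1.51, adjusted p = 0.251), Hmgcs1 differed by 1.31 and Idi1 by 1.21, and the median over 29 members was 0.47. Abca1 measured 18.8 and 31.0, then 5.21 and 5.45, then 20.3 and 17.7 (-2.14, adjusted p = 0.251). Both of its day 3 libraries lay below the other 4. Of all genes averaging at least 20 CPM in this class, 15.5% had both day 3 libraries below both vehicle libraries and 18.1% had both above. CD4 T cell-like cells had a median of 0.22, and their 3 largest differences were Abca1 at -1.23 (adjusted p = 0.122), Cyp51 at 1.06 (adjusted p = 0.0678) and Elovl6 at 0.89. In CD8 T cell-like cells the median was 0.06, with Abca1 at -1.05 (adjusted p = 0.0915), Elovl6 at 0.49 and Idi1 at 0.47, and Fdps differed by 0.28. Gamma-delta T cell-like cells had a median of 0.11, with Mvd at 1.14, Abcg1 at -1.11 and Idi1 at 1.08. Macrophage-like cells had a median of 0.19, with Fdps at 1.30 (adjusted p = 0.276), Abca1 at -1.06 and Msmo1 at 1.06. Migratory dendritic cell-like cells, which carry antigen from the skin, had a median of 0.20, with Scd2 at 1.14, Scap at -0.95 and Fdps at 0.90.

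Reticular fibroblast-like cells, the stromal scaffold of the node, which were present in the CD45 fraction, gave 3 calls at day 3. Of 34 members 2 rose and 1 fell, against 6.18% of all genes higher and 5.73% lower, so that the share of members was near that of all genes. Elovl6 measured 45.6 and 39.1 CPM at vehicle, 80.8 and 74.5 at day 3, and 37.4 and 41.3 at day 7, and rose by 0.92 (SE 0.14, adjusted p = 0.0144). Mvk measured 10.5 and 12.9, then 26.4 and 20.5, then 11.3 and 10.3, and rose by 1.02 (SE 0.22, adjusted p = 0.0329). Scd1 measured 36.8 and 38.9, then 15.8 and 18.9, then 22.1 and 16.0, and fell by 1.09 (SE 0.21, adjusted p = 0.0246). At day 7 none of the 3 passed edgeR's test against vehicle, with Elovl6 at -0.10, Mvk at -0.14 and Scd1 at -1.02 (adjusted p = 0.212). Fdps measured 18.0 and 34.4, then 94.2 and 58.9, then 26.3 and 12.96 (1.49, SE 0.43, adjusted p = 0.0671), and Msmo1 measured 8.30 and 24.3, then 32.5 and 30.6, then 18.0 and 11.1 (1.00, adjusted p = 0.201), both highest at day 3. So were Cyp51, at 13.8 and 21.1, then 34.7 and 29.1, then 16.9 and 14.6 (0.90), Ebp, at 48.6 and 53.8, then 90.3 and 70.7, then 52.0 and 42.0 (0.67), and Hmgcs1, at 29.1 and 46.1, then 56.5 and 58.6, then 24.9 and 26.1 (0.67). Abca1 measured 202 and 248, then 96.3 and 164, then 235 and 241 (-0.78, adjusted p = 0.0507) and Fads1 32.2 and 34.8, then 25.7 and 27.7, then 33.3 and 31.1 (-0.29), both lowest at day 3. Acly measured 42.4 and 56.6, then 29.0 and 39.2, then 33.3 and 38.8 (-0.50), with day 3 below vehicle and overlapping day 7. Such separation was common here. Of 16 members averaging at least 20 CPM, 7 had both day 3 libraries above both vehicle libraries and 6 had both below. Of all genes at that level, 32.1% and 34.8% did. DESeq2 called 6 of the 34, Elovl6, Mvk, Scd1, Abca1, Cyp51 and Ebp, against 12.1% of the 15196 genes with an adjusted p. These cells had a median of 11737 to 13985 UMIs at day 3 against 5545 to 8383 elsewhere, and cycling genes at 1032 and 643 CPM at day 3 against 169 and 84.6 at vehicle. Their cluster led by Ccl21a and Ccl19 held 57.2% and 46.8% of the class at day 3 and 18.6% and 21.9% at vehicle, where clusters led by Mgp (35.1%, labelled Cre-negative) or by Stc1 and Lepr (39.5%, labelled Cre-positive) were the largest. Pericyte markers summed to 1085.1 and 1106.4 CPM at vehicle, 3345.5 and 2584.4 at day 3, and 1790.8 and 1309.2 at day 7, again highest at day 3. The part of cluster makeup and of pericyte genes was not tested. No call was left in cells with no cycling UMI, where Mvk was 1.11 (adjusted p = 0.134), Elovl6 0.95 (adjusted p = 0.147) and Scd1 -0.59 (adjusted p = 0.252). In cells with a Y-linked and no Xist UMI the Scd1 call was left, at -1.35, with Mvk at 0.86, Elovl6 at 0.44 and the median over members at 0.10 against 0.27 in all cells. With 1 library left out, Mvk lay between 0.72 and 1.37, Elovl6 between 0.84 and 1.03 and Scd1 between -1.25 and -0.93; all 3 calls were lost without either day 3 library, and that of Mvk also without the vehicle library labelled Cre-negative.

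Immune classes found in the CD31 fraction gave no calls. At day 3 edgeR called 0 of all genes in each T cell class there and 1 of 10349 in B cell-like cells. In migratory dendritic cell-like cells 4 of 6155 were higher and 9 lower. At an unadjusted p under 0.05 B cell-like cells had 12 of 31 members, against 4.07% of all genes. T cell-like cells had 6 of 32 (2.89%) and regulatory T cells 8 of 26 (3.37%). CD4 cells had 4 of 27 (3.86%), CD8 cells 2 of 30 (4.5%) and migratory dendritic cells 2 of 20 (4.68%). The 3 largest day 3 differences in B cell-like cells, whose median was 0.47, were Fdps (1.34, adjusted p = 0.608), Sqle (1.00) and Idi1 (1.00). T cell-like cells had a median of 0.16, with Abca1 at -1.21, Fdps at 0.85 and Sqle at 0.68. Among them, regulatory cells had a median of 0.22, with Abca1 at -1.41, Sqle at 1.19 and Fdps at 1.18. CD4 cells had a median of 0.15, with Abca1 at -1.03, Fdps at 0.94 and Scd2 at -0.94, and CD8 cells one of 0.09, with Abca1 at -1.31, Mvd at -0.89 and Elovl6 at 0.55. Migratory dendritic cell-like cells had a median of 0.30, with Sc5d at 1.17, Idi1 at 1.03 and Scd2 at 0.99. Abca1, below 0 in every T cell class of both fractions, did not pass edgeR's threshold in any of them; DESeq2 called it in the T cell-like class of the CD45 fraction.

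Outside HEV-like cells, 20 classes were fitted, which overlap in part and share libraries. At day 3, 19 of their medians over members lay above 0, from -0.10 to 0.48, and 4 classes had a called member, with 12 calls in 596 tests, against 1.29% of all gene tests in those fits. At an unadjusted p under 0.05 there were 158 of the 596, against 10.2% of all gene tests. Taken within each label, over members averaging at least 20 CPM, the median changed sign between labels in some classes. These were migratory dendritic cell-like (0.555 and -0.09) and fibroblast-like cells (0.42 and -0.12) of the CD45 fraction. In the CD31 fraction they were CD4 T cell-like (0.28 and -0.09), other blood endothelial-like (0.25 and -0.04) and capillary-like cells (0.02 and -0.27). Elsewhere both lay above 0. With HEV-like cells included, day 7 gave 6 medians above 0 in 21 classes, from -0.33 to 0.15, the highest being that of HEV-like cells, which was 0.02 without the day 7 library labelled Cre-positive and 0.01 in cells with a Y-linked and no Xist UMI, and 0 calls in 629 tests, against 0.0401% of all gene tests, with 23 at an unadjusted p under 0.05, against 3.13%. Between labels there were also 6 medians above 0 and 0 calls in 616 tests, against 0.102%, with 54 at an unadjusted p under 0.05, against 6.96%. In lymphatic endothelial-like cells edgeR's test between labels gave 8 of 33 members an unadjusted p under 0.05, against 2.59% of all genes. Their median was -0.15, with 7 of the 33 higher in the libraries labelled Cre-positive.

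The genes differed in how many of the 20 classes outside HEV-like cells had them higher at day 3. Of the enzymes to squalene, Fdps was above 0 in 20 of 20 classes, from 0.28 to 1.54 with a median of 1.06, Idi1 in 19 of 20, Hmgcs1 and Pmvk in 18 of 20, Mvk in 16 of 19, Mvd in 15 of 17, Acat2 in 13 of 17 and Fdft1 in 13 of 18. Of the ring enzymes, Msmo1 (0.08 to 1.20) and Ebp (0.01 to 0.69) were above 0 in 20 of 20, Cyp51 in 19 of 20, Nsdhl in 18 of 19, Sc5d in 17 of 20, Sqle in 16 of 18, Hsd17b7 in 14 of 15, Dhcr7 in 14 of 17, Lss in 9 of 12 and Tm7sf2 in 6 of 7. The regulators were split, with Insig1 above 0 in 19 of 20, Srebf2 and Stard4 in 17 of 20, Srebf1 in 9 of 18, Insig2 in 8 of 19 and Scap in 5 of 19. Of the fatty acid synthesis genes, Elovl6 was above 0 in 15 of 17, with a median of 0.55, Acly in 14 of 20, Acaca in 11 of 20 and Fasn in 11 of 18. Of the desaturases, Scd2 was above 0 in 11 of 20, Fads1 in 7 of 11, Scd1 in 2 of 10 and Fads2 in 1 of 6. The exporters were mostly below 0, with Abca1 above 0 in 1 of 19 classes and a median of -0.99, and Abcg1 in 5 of 20.

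**Figure D4:**
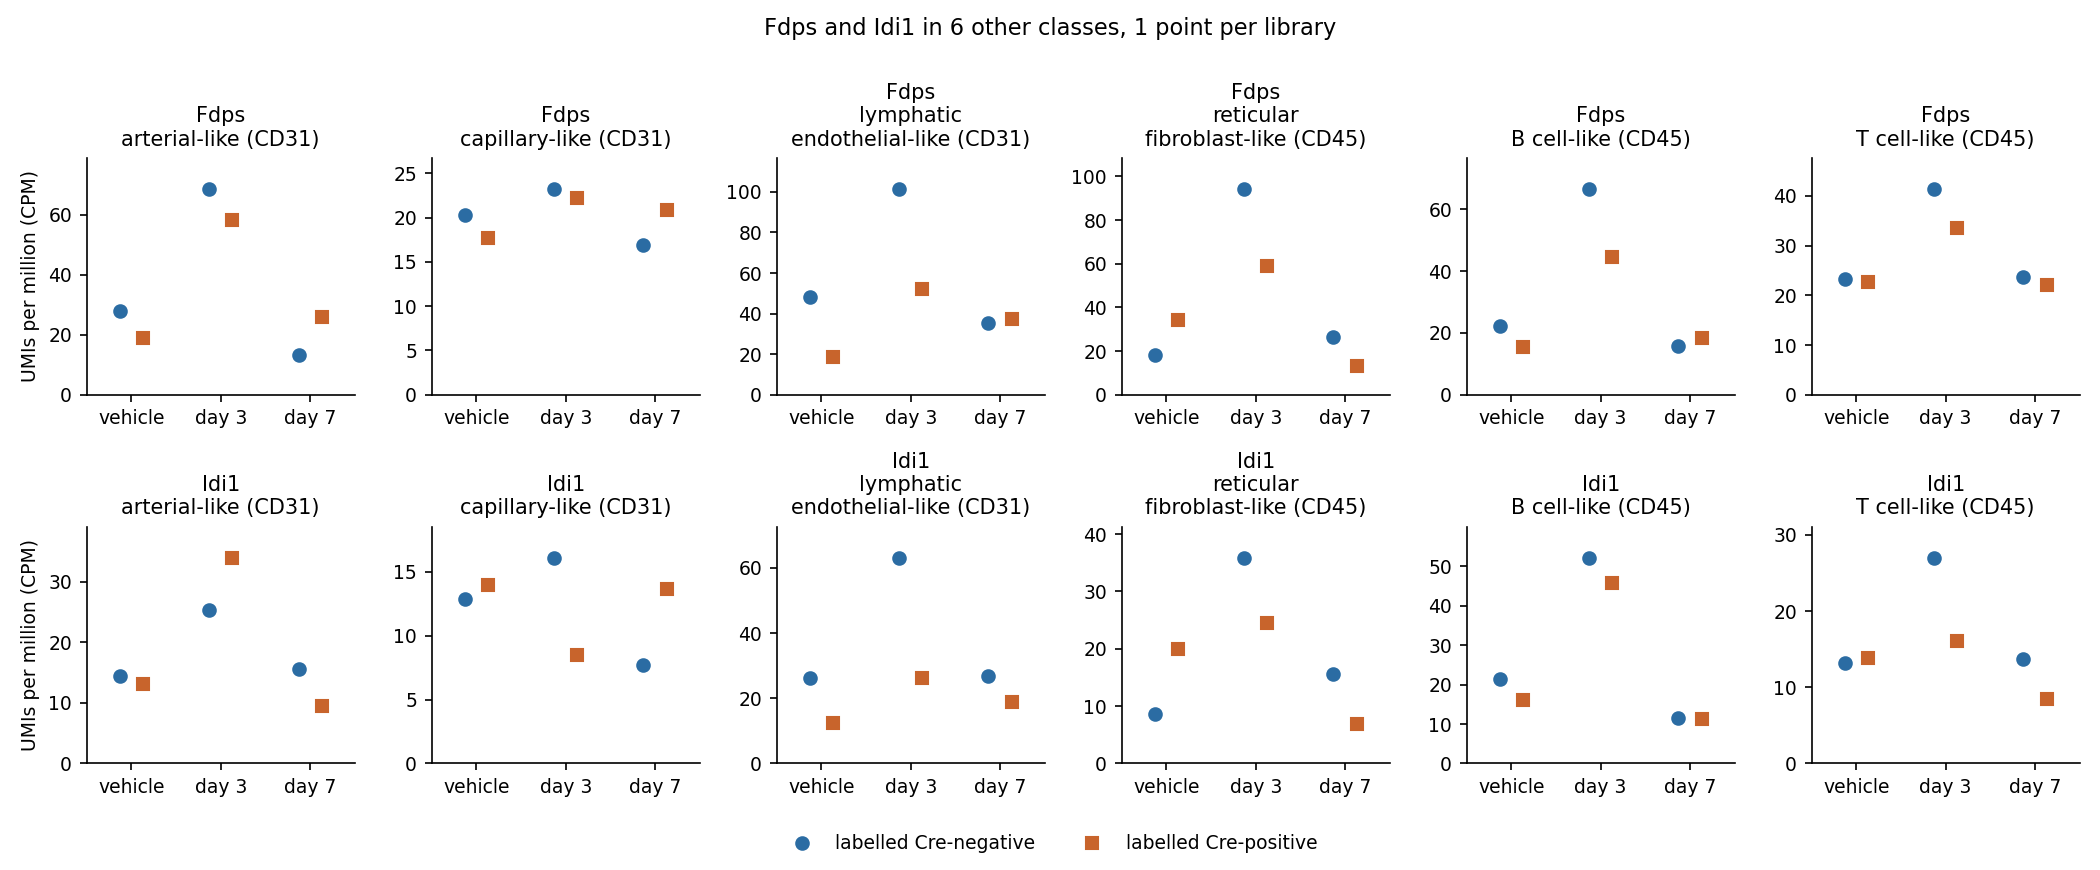
CPM of Fdps (upper row) and Idi1 (lower row) by treatment in 6 classes other than HEV-like, on axes from 0; each point is 1 library, circles labelled Cre-negative and squares Cre-positive. In arterial-like cells the day 3 points for Fdps are at 68.6 and 58.3, apart from the rest, and in capillary-like cells at 23.2 and 22.2, close to the other libraries.

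Classes with too few cells in some library to be fitted are given by level only. Fdps in cycling T cell-like cells measured 67.9 and 64.3 CPM at vehicle, 213 and 158 at day 3, and 47.0 and 76.2 at day 7 in the CD31 fraction, and 58.0 and 49.0, then 211 and 163, then 49.9 and 66.0 in the CD45 fraction. Day 3 was highest in both. In the CD45 fraction, Fdps measured 36.7 and 47.8, then 224 and 190, then 42.3 and 45.3 in plasmacytoid dendritic cell-like cells, from 16 to 73 UMIs per library. Type 1 dendritic cell-like cells, which present antigen to CD8 T cells, had 74.2 and 72.6, then 250 and 155, then 52.2 and 70.4, from 22 to 210 UMIs. Cycling blood endothelial-like cells of the CD31 fraction had 22.6 and 38.3, then 63.7 and 55.4, then 40.0 and 30.7, and germinal centre B cell-like cells of the CD45 fraction 95.4 and 98.6, then 190 and 146, then 52.2 and 98.1, again highest at day 3 on as few as 2 UMIs. Some of these classes did not show this. Plasma cell-like cells of the CD45 fraction had Fdps at 68.8 and 83.1, then 122 and 46.8, then 0 and 58.5, so that the groups overlapped. NK cell-like cells of the CD31 fraction had Fdps at 10.0 and 16.2, then 8.84 and 17.5, then 26.3 and 22.1, from 1 to 4 UMIs. The enzymes to squalene, as log2 of day 3 over vehicle of the same label, lay at -1.18 and -1.28 in those NK cells and at 0.91 and -0.52 in those plasma cells. In the other fraction of each, these enzymes lay at 0.07 and 1.19 in NK cell-like cells (CD45) and at 0.505 and 0.665 in plasma cell-like cells (CD31). They lay at 0.71 and 0.86 in the cycling blood endothelial cells.

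The 32 other genes of the pathway, such as the acetyl-CoA synthetase Acss2, the sterol esterifier Soat1 and the LXR genes, gave 6 calls at day 3 outside HEV-like cells, at shares near those of all genes. In HEV-like cells 20 of 32 lay above 0 at day 3, with a median of 0.12. In arterial-like cells Hsd17b12, a fatty acid elongation enzyme, rose by 0.77 (adjusted p = 0.00972) and Acacb, the mitochondrial carboxylase, fell by 0.74 (adjusted p = 0.0152), 1 of 32 in each direction, where 3.94% of all genes rose and 3.13% fell. In reticular fibroblast-like cells 2 rose, Tmem97 by 1.41 and Gpam, which starts triglyceride synthesis, by 1.12, and 2 fell, Lpin1 by 1.16 and Mylip, which degrades lipoprotein receptors, by 1.26, again 2 of 32 in each direction beside 6.18% and 5.73% of all genes. None was called in the other 18 class fits at day 3, where 17 to 32 of the genes passed the filter. Between labels Elovl5, an elongase of polyunsaturated fatty acids, was higher in the libraries labelled Cre-positive in CD8 T cell-like cells of the CD45 fraction (0.63, adjusted p = 0.0117), where 0.273% of all genes were higher, and in gamma-delta T cell-like cells (1.40, adjusted p = 0.00179), where 0.683% were.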

How the data were processed

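The authors deposited matrices of UMI counts per gene and barcode, listing every barcode, 1 for each of 12 libraries of 10x 3' chemistry. Per the submitters' processing notes they were made with Cell Ranger 7.0.1 on mm10. Matrix headers name Cell Ranger 4 instead, and which version made the counts was not settled. The treatment of strand and of reads shared between genes was not given in the sources used here, so levels of genes that overlap others or have near copies are uncertain. The gene mRFP, listed in 4 CD31 libraries, was left out.

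Cells were barcodes with at least 1000 UMIs, 500 genes and no more than 10% of UMIs from mitochondrial genes. The automatic threshold of the doublet caller Scrublet marked 82 to 228 barcodes in 9 libraries but 0, 2 and 3 in the other 3, so in every library the highest scores were removed instead, 0.8% for each 1000 barcodes (4.78% to 9.31% of cells). Each fraction was clustered with scanpy 1.11.5 (2000 variable genes without the members, 30 components, 20 neighbours, Leiden resolution 1) and clusters were named by marker lists as "-like" classes. UMIs were summed per class and library, in classes of at least 50 cells in every library of the fraction. Sums were fitted in edgeR 4.0.16 (R 4.3.3) with TMM scaling, its expression filter and a quasi-likelihood F test in a model with label and treatment, 2 residual degrees of freedom; SEs were computed from the log2 change and the F statistic. P-values were adjusted by Benjamini-Hochberg over all genes tested at 0.05. DESeq2 1.42.0 was an alternative. The fits were tested on simulated data.

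The members and lists were chosen with earlier results of these data known. Values in every library were given for members past the threshold and for the 10 with the largest change among those averaging at least 20 CPM, and Fdps always, in the day 3 comparisons of 9 classes (day 7 and label are given mostly as changes); other classes were given by counts and their 3 largest changes, and at most 4 other pathway genes were named per class. The average took in every library, day 3 included, so a gene could enter through its day 3 level. Values outside that rule were chosen after they were seen. Alternatives left out each library, changed the normalisation, the filter, the libraries fitted, the clustering, and the doublets, took 10% of each sum out in the profile of free RNA, or took only cells of at least 2000 UMIs, with no cycling UMI, or with a Y-linked and no Xist UMI.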

Additional observations from a re-analysis of the deposited data

Results flagged for a closer look

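In the CD31 fraction, some day 3 differences went up in both libraries of 1 endothelial class and down in both libraries of another; the differences between classes were not tested. Values are log2 of day 3 over vehicle of the same label, the library labelled Cre-negative first. Hmgcs1 lay at 0.24 and 0.97 in HEV-like cells and at 1.02 and 0.57 in lymphatic endothelial-like cells, but at -0.29 and -0.34 in capillary-like cells. Scd2 lay at 0.82 and 0.28 in lymphatic endothelial-like and at -1.14 and -0.22 in capillary-like cells. The summed regulators and transport genes lay at 0.43 and 0.39 in HEV-like, 0.34 and 0.10 in arterial-like, 0.25 and 0.14 in lymphatic endothelial-like and -0.16 and -0.14 in capillary-like cells. The summed fatty acid synthesis genes lay at 0.52 and 0.54 in HEV-like and at -0.015 and -0.40 in capillary-like cells. The summed desaturases lay at 0.50 and 0.11 in lymphatic endothelial-like and at -0.55 and -0.96 in capillary-like cells. Capillary-like cells are the shallowest of these, and their cluster led by Timp4 went from 25.1% and 24.1% of the class at vehicle to 45.5% and 41.6% at day 3; the part of depth and of cluster makeup was not tested.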

How the results depend on the processing

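Of 14 results that answer a comparison, 5 did not change under any alternative run: the counts of 0 calls at day 7 and between labels in HEV-like and in non-HEV blood endothelial cells, and for the difference of lymphatic and non-HEV blood endothelial cells. Alternatives with cells of a Y-linked and no Xist UMI, and those for arterial-like, other blood endothelial-like and fibroblast-like cells, were chosen after seeing the data. The median over members in HEV-like cells at day 3, 0.57, was 0.33 in cells with a Y-linked and no Xist UMI and 0.43 to 0.61 with 1 library left out. That median is 1 of the 14 and is a description only, since day 3 in these cells chose the genes. Counts of called members at day 3 moved as follows, "no cycling UMI" and "Y-linked cells" being fits of such cells alone. Arterial-like, 6: DESeq2 0, doublets kept 1, no cycling UMI 3, free RNA removed 3, Y-linked cells 0, 1 library left out 1 to 8, with 8 also the highest count when every library was kept. Other blood endothelial-like, 2 (Fdps and Idi1): DESeq2 1, which is Abca1 and neither of these, no TMM 0, no filter 6, only the compared libraries 7, label left out 4, no cycling UMI 0, free RNA removed 0, Y-linked cells 0, 1 library left out 0 to 7. DESeq2 gave an adjusted p for 9 of 34 members there, not for Fdps or Idi1. Non-HEV blood endothelial, 0: DESeq2 2, no filter 2, only the compared libraries 3, 1 library left out 0 to 4. Lymphatic, 0: no filter 3, only the compared libraries 3, 1 library left out 0 to 3. B cell-like, 1: DESeq2 7, no TMM 5, no filter 13, only the compared libraries 8, doublets kept 0, no cycling UMI 0, free RNA removed 0, Leiden resolution 2 6, Y-linked cells 0, 1 library left out 0 to 13. T cell-like, 0: DESeq2 1, no filter 4, only the compared libraries 1, 1 library left out 0 to 2. T minus B cell-like, 0: no filter 3, only the compared libraries 4, no cycling UMI 2, 1 library left out 0 to 4. Reticular fibroblast-like, 3: DESeq2 6, no filter 10, only the compared libraries 13, no cycling UMI 0, Y-linked cells 1, 1 library left out 0 to 17. Medians changed sign: in non-HEV blood endothelial cells at day 7 from -0.025 to 0.018 in cells with no cycling UMI and, with 1 library left out, -0.144 to 0.032 (0.032 without the day 7 library labelled Cre-negative), and in fibroblast-like cells at day 3 from 0.268 to a range of -0.124, without the vehicle library labelled Cre-negative, to 0.76, without the one labelled Cre-positive. Other day 3 medians moved by over 1.5 times without changing sign: in cells with a Y-linked and no Xist UMI from 0.344 to 0.125 in lymphatic, 0.477 to 0.287 in arterial-like and 0.268 to 0.101 in fibroblast-like cells, and in cells with no cycling UMI from 0.211 to 0.101 in T cell-like, 0.260 to 0.161 in non-HEV blood endothelial and 0.271 to 0.080 in other blood endothelial-like cells. The day 7 median of HEV-like cells, 0.154, lay between 0.009, in cells with a Y-linked and no Xist UMI, and 0.229. The cause was not tested. No called member changed sign. The Fdps call in arterial-like cells was kept in 14 of 16 alternatives, Idi1, Cyp51 and Msmo1 in 12, Elovl6 in 7 and Pmvk in 6; Fdps and Idi1 of the other blood endothelial-like cells were kept in 9 of 16, Idi1 of B cells in 11 of 17, and Scd1, Elovl6 and Mvk of fibroblast-like cells in 14, 13 and 12 of 17. The labels give no replicate number, and the model compares libraries of the same Cre label; leaving the label out moved the count in other blood endothelial-like cells only, of those above.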

Other observations

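With 1 library per group, a difference between libraries of 1 treatment cannot be told apart from an effect of the label at that time. Each fit leaves 2 residual degrees of freedom, and edgeR's test adds to them by sharing information on spread across genes. Reads from 3' ends show transcript levels, not enzyme activity or sterol content. Fdps in free RNA of the CD45 libraries had its highest values at day 3, and Abca1 there measured 66.7 and 88.3 CPM at vehicle, 31.8 and 46.5 at day 3, and 67.1 and 115 at day 7, again lowest at day 3. With 10% of each sum taken out in the profile of free RNA, a chosen share and not an estimate, the day 3 median over members went from 0.57 to 0.54 in HEV-like, from 0.44 to 0.42 in B cell-like, from 0.26 to 0.20 in non-HEV blood endothelial and from 0.21 to 0.19 in T cell-like cells, and was 0.48 before and after in arterial-like cells.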
